A study of Mus musculus with 10 samples.

Results

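Hox genes, followed here by cluster and by position within the cluster, were compared across 4 cell populations sorted from differentiating mouse embryonic stem cells (mESCs). Members were taken as the rows of the count tables whose Ensembl identifier carries the symbol of a protein-coding Hox gene in the GENCODE M21 annotation. Of the 38 Hox genes listed, 37 had a row in the count tables of all 10 samples, out of 38924 gene identifiers in all, and Hoxd4 was not analysed here. Of the 37 genes, 10 belonged to HoxA on chromosome 6, 10 to HoxB on chromosome 11, 9 to HoxC on chromosome 15 and 8 to HoxD on chromosome 2 of mm10. Paralogue groups 1 to 3 are called anterior (7 genes), groups 4 to 8 central (14 genes) and groups 9 to 13 posterior (16 genes).

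All samples came from 1 mESC line in which a truncated human CD4 (hCD4) is made under control of Foxa2, and staining for hCD4 thus sorts cells by Foxa2 expression. Cells were sorted on day 5. Foxa2+ cardiac mesoderm (CM, n = 3) was Pdgfra+ Kdr+ hCD4+, and Foxa2− CM (n = 3) was Pdgfra+ Kdr+ hCD4−. Haematopoietic mesoderm (n = 2, labelled Flk1+ high, Flk1 being the protein of Kdr) was Pdgfra− Kdr+ hCD4− and came from the same kind of culture, given Activin A, BMP4 and VEGF. Foxa2+ endoderm (n = 2) was Pdgfra− Kdr− hCD4+ and came from cultures given a higher dose of Activin A without BMP4 or VEGF, so that lineage and culture cannot be told apart in comparisons with endoderm. The labels do not say whether replicates were separate cultures, and p-values therefore measure only the spread between these samples, which may be technical.

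Hox genes encode homeodomain transcription factors that give cells their position along the head-to-tail axis. Within a cluster all genes are read in the same direction, and in the embryo genes at the 3′ end (low numbers) are switched on first and reach the most anterior tissues, whereas genes at the 5′ end (high numbers) follow later and stay posterior. Hox activation in the primitive streak depends on Wnt signals and the caudal factors Cdx1, Cdx2 and Cdx4, retinoic acid induces anterior Hox genes, and Polycomb complexes keep silent clusters shut. Hox proteins bind DNA together with cofactors of the TALE class (Pbx, Meis and Prep proteins). In the heart field, anterior Hox genes mark cells of the posterior second heart field, which forms atrial and outflow tract tissue.

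The samples held 10926284 to 17470126 reads counted on genes, and of these only 42 to 3082 lay on the 37 Hox genes. Levels are given as CPM (counts scaled to library size, here with edgeR's TMM factors), and 3 counts, taken as the floor of detection, amounted to 0.172 to 0.275 CPM. Such intervals and floors cover counting error only. Foxa2 itself followed the sort, at 20.03, 16.03 and 3.497 CPM in the Foxa2+ CM samples, 0.873 to 2.54 CPM in Foxa2− CM, 183 to 186 CPM in endoderm and 0.690 to 0.788 CPM in haematopoietic mesoderm. Kdr was at 354 to 440 CPM in the CM samples, 554 to 593 CPM in haematopoietic mesoderm and 6.24 to 9.96 CPM in endoderm. Of 8 definitive endoderm markers, 7 were higher in endoderm than in Foxa2+ CM (edgeR adjusted p under 0.05 and at least 2-fold), beside 10.2% of all genes tested. By the same rule all 8 haemato-endothelial markers were lower in endoderm than in haematopoietic mesoderm, beside 8.11% of all genes. In haematopoietic mesoderm 5 of these 8 were higher than in Foxa2+ CM and 7 higher than in Foxa2− CM (3 and 5 by DESeq2). The shares of all genes were 5.17% and 5.24%. No library went against its label in these genes. However, both CM samples numbered 3 and the second haematopoietic sample stood above the others of their group in most Hox genes. Some results, though not all, are also given without these samples.

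Hox RNA was highest in Foxa2− CM and lowest in endoderm. The summed level of the 37 genes was 117 ± 49.8 CPM in Foxa2− CM (mean ± SD, n = 3), 70.9 ± 30.2 CPM in haematopoietic mesoderm (n = 2), 21.6 ± 15.8 CPM in Foxa2+ CM (n = 3) and 8.19 ± 6.04 CPM in endoderm (n = 2). The Foxa2+ CM samples held 9.87, 15.4 and 39.5 CPM, all below the Foxa2− CM samples at 87.2, 88.3 and 174 CPM. Haematopoietic samples, at 49.6 and 92.2 CPM, lay above every Foxa2+ CM sample and overlapped Foxa2− CM, and the endoderm samples, at 3.91 and 12.5 CPM, overlapped Foxa2+ CM. In bulk samples such as these, fewer cells that express a gene and less RNA per cell cannot be told apart.

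Divided by exonic length, the highest member was Hoxb1 in 3 of the 4 groups, at 13.2 CPM per kb in Foxa2− CM, 6.06 CPM per kb in haematopoietic mesoderm and 1.66 CPM per kb in endoderm. Hoxb1 is among the first Hox genes activated in the streak. Its first place in haematopoietic mesoderm came from replicate 1 (9.51 CPM per kb), since in replicate 2 Hoxb1 (2.61 CPM per kb) stood below Hoxd1 (6.22), Hoxb2 (4.33), Hoxb4 (4.08) and Hoxb5 (3.79 CPM per kb). In Foxa2+ CM the order of the leading genes was Hoxd1 at 2.07, Hoxb1 at 1.35 and Hoxb2 at 1.17 CPM per kb. Both CM groups had genes from farther along the clusters among their 6 highest, namely Hoxb6 and Hoxd9, which stood at 5.52 and 4.73 CPM per kb in Foxa2− CM and at 0.467 and 0.523 CPM per kb in Foxa2+ CM, and in Foxa2− CM also Hoxa11 (1.82 CPM per kb). In haematopoietic mesoderm the 6 highest were Hoxb1, Hoxd1 and Hoxb2 to Hoxb5. These orders rest on 2 or 3 samples a group and neighbouring genes overlapped between samples. HoxC was the quietest cluster per sample, between 0.127% and 11.9% of Hox counts. Hoxc11, Hoxc12 and Hoxd12 had no count in any sample, and Hoxa6 and Hoxb13 stayed under 3 counts in each.

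**Figure D1:**
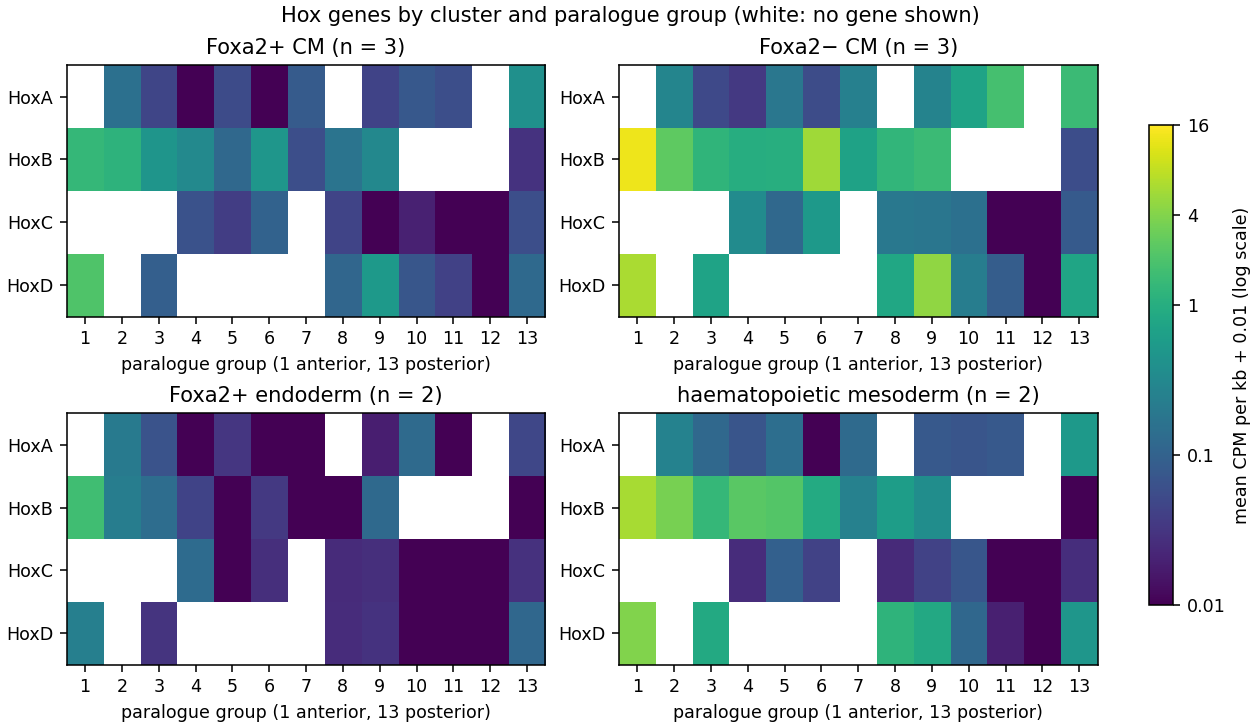
Mean level of each Hox gene in the 4 groups, as CPM per kb of exon plus 0.01 on a log colour scale, with clusters as rows and paralogue groups as columns (white squares hold no gene shown). The brightest squares are Hoxb1 in Foxa2− CM (13.2 CPM per kb) followed by Hoxd1 in the same group (6.34 CPM per kb) and Hoxb1 in haematopoietic mesoderm (6.06 CPM per kb), and in endoderm no gene beyond paralogue group 3 exceeds 0.121 CPM per kb (Hoxc4).

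The sequence upstream of 3 members is shown, 1 from each position class: Hoxb1 as the most abundant anterior gene, Hoxb8 as a central gene with no count in endoderm, and Hoxd13 as the posterior gene with the smallest standard error. Unlike Hoxb1 and Hoxd13, Hoxb8 was not called between the CM groups below. Each run is the 250 bases before the RefSeq start on GRCm38.p6, read 5′ to 3′ on the plus strand of the chromosome, which is the strand of each of these genes: chr11:96365508-96365757 for Hoxb1, chr11:96281655-96281904 for Hoxb8 and chr2:74667975-74668224 for Hoxd13. In GENCODE M21 the Hoxb8 and Hoxd13 windows hold no gene, and the last 6 bases of the Hoxb1 window are the start of its first exon. Capitals mark matches, on either strand, to a PBX-HOX motif (TGATNNAT) or a caudal-type motif (CAATAAA).
Hoxb1: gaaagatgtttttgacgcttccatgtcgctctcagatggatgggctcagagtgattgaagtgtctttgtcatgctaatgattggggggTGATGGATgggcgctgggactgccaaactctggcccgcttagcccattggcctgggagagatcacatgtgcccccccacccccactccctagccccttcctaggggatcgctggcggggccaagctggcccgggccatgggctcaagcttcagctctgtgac
Hoxb8: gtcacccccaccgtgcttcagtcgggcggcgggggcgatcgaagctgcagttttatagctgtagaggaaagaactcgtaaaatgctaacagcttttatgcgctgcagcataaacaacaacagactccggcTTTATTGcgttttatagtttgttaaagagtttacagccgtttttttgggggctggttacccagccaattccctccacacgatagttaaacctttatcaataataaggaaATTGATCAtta
Hoxd13: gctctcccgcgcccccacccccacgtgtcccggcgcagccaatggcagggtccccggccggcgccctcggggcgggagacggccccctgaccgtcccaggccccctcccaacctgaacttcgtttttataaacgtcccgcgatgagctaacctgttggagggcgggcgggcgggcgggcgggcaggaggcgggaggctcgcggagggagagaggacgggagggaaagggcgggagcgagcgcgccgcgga
The Hoxb1 window held 1 PBX-HOX match, on the plus strand and 154 bases before the start. The Hoxb8 window held a caudal-type match 113 bases and a PBX-HOX match 3 bases before the start, both on the minus strand and not overlapping. The Hoxd13 window held neither and was rich in G and C (74.4%). Among 32851 promoter windows of the same length, 7.68% held the PBX-HOX letters and 4.2% the caudal-type letters. Of the 37 members, 21 had a RefSeq window, 4 of these held a PBX-HOX match (Hoxa2, Hoxb1, Hoxb8 and Hoxd11) and 1 a caudal-type match (Hoxb8). Of the 9 genes called between the CM groups below, 7 had a window and Hoxb1 alone held a match. A match is a description of letters, not a binding site.

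The first comparison asked how the CM cells that express Foxa2 differ from those that do not. Hox genes were lower in Foxa2+ CM along the length of the clusters: 9 members were called lower and none higher, by the quasi-likelihood test of edgeR with p-values adjusted after Benjamini and Hochberg, where called means an adjusted p under 0.05 and at least 2-fold. Of all 15284 genes tested, 1.52% were called lower in Foxa2+ CM, 1.49% higher and 3.01% in either direction. At an unadjusted p under 0.05, 14 Hox genes were lower and 0 higher, and DESeq2 called 15 lower and 0 higher. Only 16 of the 37 members passed the filter on low counts, and several passed it through Foxa2− CM alone, so that these had to differ. The calls and the median below are thus no support for the members as a group. The log2 fold changes of the 16 ran from -5.02 to -1.13 with a median of -2.88, beside -0.00135 over all genes tested. Mean CPM was higher in Foxa2− CM for 16 of the 16 tested members and for 51.2% of all tested genes. Without that filter on the members, it was higher there for 34 of the 34 Hox genes with a count in any CM sample. The share over all genes without the filter was not taken. Some of the 34 rested on few counts, such as Hoxa4 and Hoxa6 (2 in all in Foxa2− CM and 0 in Foxa2+ CM) and Hoxa3 (12 and 11).

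Among the anterior genes, Hoxb1 (ENSMUSG00000018973, chr11:96365752-96368256) had 18, 40 and 102 counts in the Foxa2+ CM samples and 551, 325 and 570 counts in the Foxa2− CM samples. The groups did not overlap, and the means were 3.13 ± 2.33 and 30.7 ± 4.35 CPM (SD, n = 3 each). The log2 fold change was -3.26 (SE 0.43, edgeR adjusted p = 0.00605). Hoxd3 (ENSMUSG00000079277, chr2:74711927-74748442), a group 3 gene active in the hindbrain and neck region, had 4, 5 and 8 counts against 25, 25 and 94, again without overlap, with a log2 fold change of -3.08 (SE 0.58, edgeR adjusted p = 0.0218). Of its exonic bases, 8.8% are shared with the noncoding genes Haglr and Hoxd3os1, and since the strand setting of the counting is not given in the sources used here, reads there cannot be assigned to either. The other anterior genes tested did not pass: Hoxd1 at 1.97, 3.59 and 5.98 CPM against 6.81, 11.3 and 17.3 CPM (log2 fold change -1.61, adjusted p = 0.0797), Hoxb3 at -1.42 (adjusted p = 0.231) and Hoxb2 at -1.13 (adjusted p = 0.293). Hoxb2 and Hoxb3 overlapped between the groups, in that Foxa2+ CM replicate 3 lay within the range of Foxa2− CM.

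Among the central genes, Hoxb6 (ENSMUSG00000000690, chr11:96292476-96301569), a trunk gene of the lateral mesoderm, had 2, 9 and 37 counts in Foxa2+ CM and 104, 105 and 314 counts in Foxa2− CM. Its log2 fold change was -3.50 (SE 0.70, edgeR adjusted p = 0.0267). Hoxb5 (ENSMUSG00000038700, chr11:96303336-96306121), known from lung and gut mesoderm, had 1, 3 and 12 counts against 24, 23 and 91, with a log2 fold change of -3.12 (SE 0.73, edgeR adjusted p = 0.0459). Neither gene overlapped between the groups. Hoxb8, whose upstream sequence is given above, had 1, 3 and 18 counts against 28, 39 and 94, and at -2.92 (SE 0.72, edgeR adjusted p = 0.0538) lay just outside the threshold. Hoxd8 stood at -2.85 (adjusted p = 0.0709) and Hoxb4 at -1.63 (adjusted p = 0.306), and Hoxb4 replicate 3 of Foxa2+ CM (31 counts) lay above replicates 1 and 2 of Foxa2− CM (17 and 21 counts).

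All 5 posterior genes called came from groups 9 to 13 of HoxA and HoxD, which pattern the hind trunk, limbs and urogenital tract. Hoxa11 (ENSMUSG00000038210, chr6:52242106-52245810), a limb and genital tract gene, had 0, 1 and 5 counts in Foxa2+ CM and 34, 41 and 126 counts in Foxa2− CM. This was the largest fitted difference among the tested members, at -5.02 (SE 0.78, edgeR adjusted p = 0.0112). Hoxa11os, its antisense RNA, shares 35% of the exonic bases of Hoxa11, and had 0, 0 and 1 counts against 8, 5 and 30. Hoxd13 (ENSMUSG00000001819, chr2:74668310-74671599), a digit patterning gene, had 4, 5 and 5 counts against 30, 19 and 39, with a log2 fold change of -2.67 (SE 0.29, edgeR adjusted p = 0.0038). Hoxa13 (ENSMUSG00000038203, chr6:52257694-52260880), its HoxA paralogue, had 6, 17 and 27 counts against 51, 39 and 88, and a log2 fold change of -1.90 (SE 0.40, edgeR adjusted p = 0.0327).

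Hoxd9 and Hoxa10 completed the called genes. Hoxd9 (ENSMUSG00000043342, chr2:74697727-74700208) had 7, 13 and 37 counts in Foxa2+ CM and 89, 83 and 323 in Foxa2− CM, with a log2 fold change of -3.15 (SE 0.63, edgeR adjusted p = 0.0263). Hoxa10 (ENSMUSG00000000938, chr6:52231197-52240854), a uterine and lumbar patterning gene, had 2, 2 and 7 counts against 18, 15 and 82 and a log2 fold change of -3.36 (SE 0.77, edgeR adjusted p = 0.0435). In all 5 posterior genes each Foxa2− CM sample was above each Foxa2+ CM sample. Hoxb9, the remaining posterior gene tested, had 4, 11 and 25 counts against 50, 23 and 118, which in CPM did not overlap either, and did not pass (log2 fold change -2.28, edgeR adjusted p = 0.072). In CPM the groups did not overlap for 13 of the 16 tested members, the exceptions being Hoxb2, Hoxb3 and Hoxb4, beside 10.4% of all tested genes. Several of the 13, such as Hoxa10, had few counts in Foxa2+ CM and entered the test through Foxa2− CM. They had to differ, and the 13 are therefore no support for the members as a group.

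**Figure D2:**
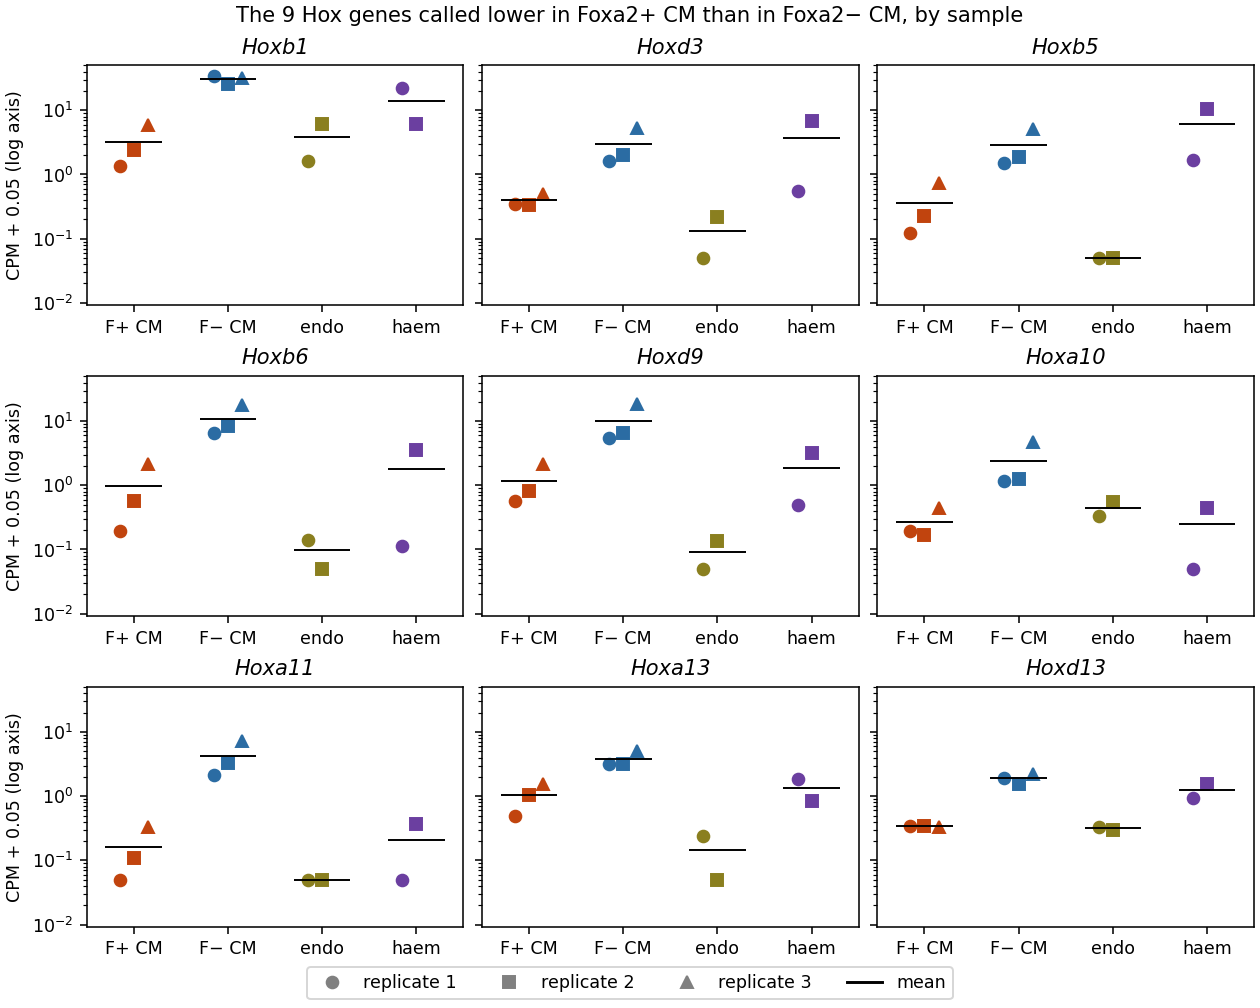
CPM plus 0.05 (log axis) of the 9 Hox genes called lower in Foxa2+ CM (F+ CM) than in Foxa2− CM (F− CM), with endoderm (endo) and haematopoietic mesoderm (haem) alongside. Points are samples, shapes are replicate numbers and lines are group means. Every Foxa2− CM point lies above every Foxa2+ CM point in all 9 panels.

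The number of calls depended on single libraries, more than the direction did. Without Foxa2+ CM replicate 2 or without Foxa2− CM replicate 2, 2 Hox genes were called, Hoxb1 and Hoxd13. Without Foxa2+ CM replicate 1, Hoxa11 joined them (3 genes). Without Foxa2+ CM replicate 3 the count was 15, and 8 of the 9 calls remained. Leaving out both CM samples numbered 3 gave 16 calls that included all 9. In each of the 6 fits that left out 1 CM sample, Hoxb1 and Hoxd13 stayed called, at log2 fold changes of -4.04 to -2.92 and -2.79 to -2.51. Without Foxa2− CM replicate 1 the count was 7 and without Foxa2− CM replicate 3 it was 10. Of the other called genes, Hoxa11 passed the adjusted threshold in 4 of these 6 fits, Hoxb6, Hoxd3 and Hoxd9 in 3, Hoxa13 and Hoxb5 in 2 and Hoxa10 in 1. With all 10 samples in 1 model, 3 Hox genes were called (Hoxa11, Hoxb1 and Hoxd13). The number of all genes called lower in Foxa2+ CM moved as well, from 233 of 15284 tested in the main fit. It was 73 of 15460 without Foxa2+ CM replicate 2 and 73 of 15690 without Foxa2− CM replicate 2. Without Foxa2+ CM replicate 1 it was 93 of 15667, and without Foxa2+ CM replicate 3 it was 276 of 15449. It was 476 of 15093 without both samples numbered 3 and 91 of 16180 with all 10 samples.

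**Figure D3:**
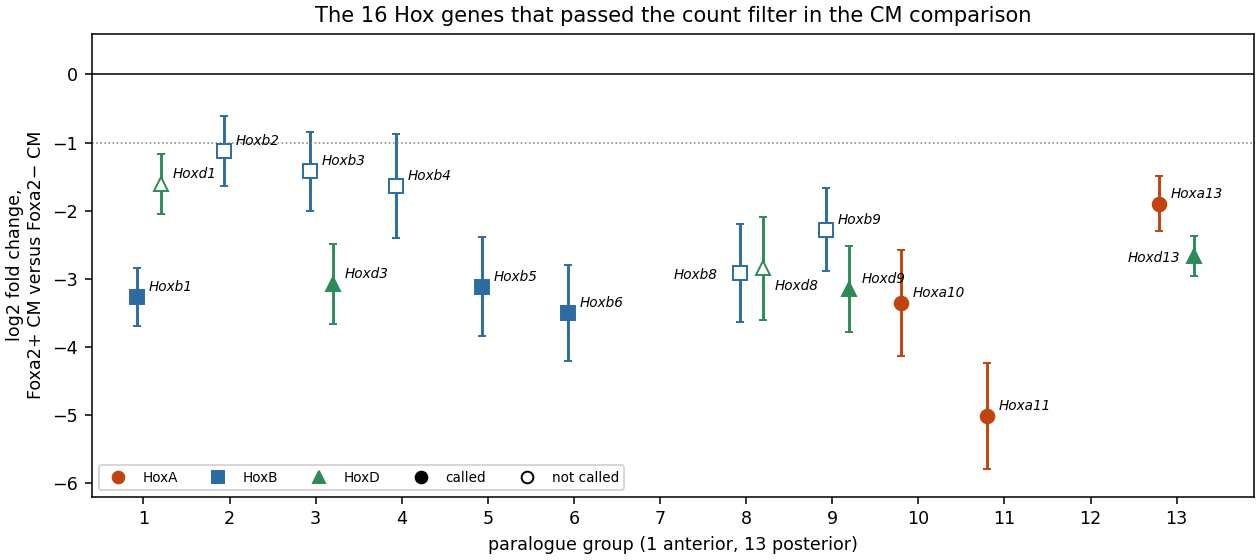
Log2 fold change of Foxa2+ CM against Foxa2− CM for the 16 Hox genes tested (bars, SE), by paralogue group, with a dotted line at 2-fold. Filled symbols mark the 9 called genes, and all 16 values lie below 0, from -1.13 for Hoxb2 to -5.02 for Hoxa11.

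Summed by position, the CM groups did not overlap in any class. The anterior sum was 13.8 ± 9.63 CPM (SD, n = 3) in Foxa2+ CM, against 60.4 ± 15.1 CPM (SD, n = 3) in Foxa2− CM, a ratio of 4.37. Central genes summed to 3.65 ± 3.68 and 26.9 ± 17.6 CPM, a ratio of 7.36, and posterior genes to 4.12 ± 2.47 and 29.2 ± 17.4 CPM, a ratio of 7.08. By cluster the ratios of the group means were close, at 5.95 for HoxA, 5.56 for HoxB, 5.62 for HoxC and 4.83 for HoxD. Taken within each sample number, they spread from 3.90 to 12.1 for HoxB and from 3.51 to 6.69 for HoxC. For HoxA they were 5.72 to 6.33 and for HoxD 4.48 to 5.50. HoxC rested on 7, 8 and 19 counts in the Foxa2+ CM samples. Between samples of the same number the ratio ranged from 3.14 to 8.47 for anterior, 5.96 to 11.02 for central and 5.96 to 8.62 for posterior genes. These ranges overlapped, although within each number the anterior ratio was the lowest of the 3 classes. In the share of Hox counts, anterior genes made up 62.6% to 66.9% in Foxa2+ CM, just above the 44.6% to 62.5% in Foxa2− CM. Posterior genes made up 17.4% to 21.8% in Foxa2+ CM and 20.9% to 28.3% in Foxa2− CM, and these shares overlapped. Within HoxA the anterior members Hoxa2 and Hoxa3 overlapped between the groups, at 0.469 ± 0.473 and 0.742 ± 0.343 CPM in sum, while the posterior HoxA genes did not, at 1.51 ± 0.733 and 11.7 ± 6.72 CPM.

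The samples numbered 3 were the highest of their group in both CM populations. Among tested members, replicate 3 was the highest of the 3 Foxa2+ CM samples for 15 of 16 and of the 3 Foxa2− CM samples for 15 of 16, beside 35.8% and 36.9% of all tested genes. Summed over all Hox genes, replicate 3 stood 3.13 times above the mean of the other two in Foxa2+ CM and 1.98 times in Foxa2− CM. Central genes differed most between samples, at 5.17 times and 2.80 times. The exceptions were Hoxd13 in Foxa2+ CM, with nearly equal levels, and Hoxb1 in Foxa2− CM, where replicate 3 (32.2 CPM) lay between replicates 1 and 2 (34.1 and 25.8 CPM). Hoxb1 therefore made up 39.1%, 29.2% and 18.5% of Hox counts in Foxa2− CM replicates 1 to 3 (exact 95% intervals 36.6% to 41.7%, 26.6% to 32.0% and 17.1% to 19.9%), and 13.3% to 15.04% in Foxa2+ CM. Foxa2+ CM replicate 3, with the most Hox RNA of its group (39.5 CPM), had the least Foxa2 (3.497 CPM), and the part of this in the Hox levels was not tested.

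**Figure D4:**
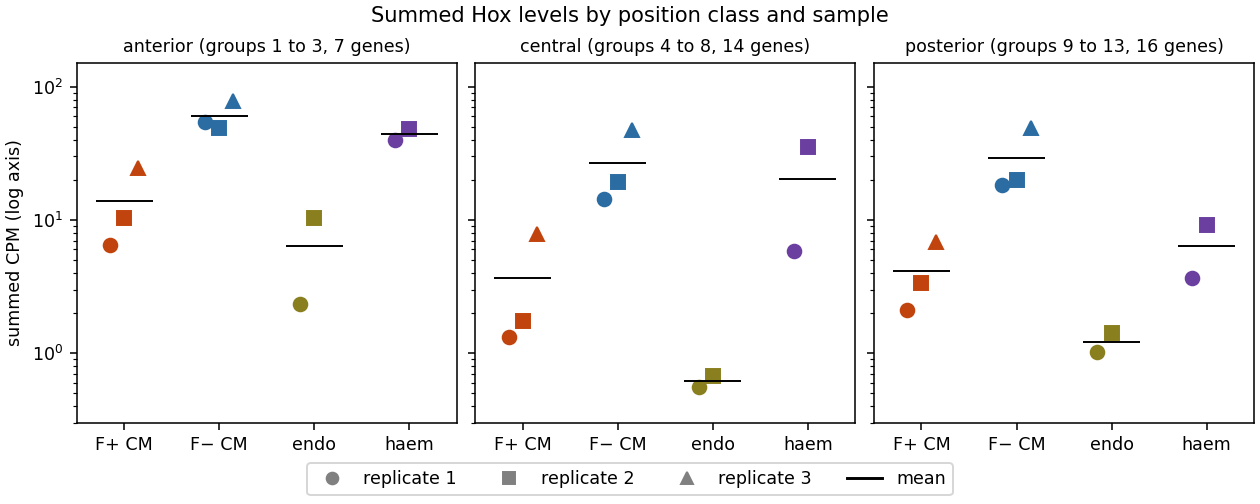
Summed CPM (log axis) of anterior, central and posterior Hox genes in each sample of Foxa2+ CM (F+ CM), Foxa2− CM (F− CM), endoderm (endo) and haematopoietic mesoderm (haem), with shapes for replicate numbers and lines for means. Foxa2− CM lies above Foxa2+ CM in each class. Haematopoietic mesoderm overlaps Foxa2− CM for central genes through replicate 2 alone (5.835 and 35.0 CPM against 14.4 to 47.1 CPM). It lies below Foxa2− CM for anterior genes (40.1 and 47.96 CPM against 49.1 to 77.6 CPM) and posterior genes (3.64 and 9.21 CPM against 18.3 to 49.3 CPM).

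Genes that flank the clusters were not called between the CM groups where they could be tested: Skap2 (-0.12, adjusted p = 0.808) and Evx1 (-0.44, adjusted p = 0.0227 but under 2-fold) beside HoxA, Skap1 (0.63, adjusted p = 0.596) beside HoxB, Calcoco1 (0.13, adjusted p = 0.505) and Smug1 (0.10, adjusted p = 0.846) beside HoxC, and Mtx2 (-0.17, adjusted p = 0.211) beside HoxD, each a log2 fold change from the same edgeR fit. Evx1 is a homeobox gene of the streak at the 5′ end of HoxA, and was abundant in all groups, from 97.2 to 108 CPM in Foxa2+ CM, below the 124 to 154 CPM of Foxa2− CM. Evx2, its counterpart beside HoxD, and Ttll6, beside the posterior end of HoxB, were at most 0.0837 and 0.377 CPM in any sample and were not tested.

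Against endoderm the question was whether the low Hox level of Foxa2+ CM resembled that of the other Foxa2+ lineage. Of the 19 tested members, 17 had a negative log2 fold change, with a median of -2.57 beside 0.00723 over all genes, and 11 did not overlap and were lower in endoderm, beside 31.2% of all genes. Several of the 19 entered the test through other groups and had few counts in both of these. Examples are Hoxa11 (6 counts in all in Foxa2+ CM and 0 in endoderm) and Hoxb7 (4 and 0). The median and the 11 are therefore no support for the members as a group. By the test, 2 of the 19 Hox genes tested were called lower in endoderm than in Foxa2+ CM and 0 higher (edgeR; unadjusted p under 0.05 for 4 lower and 0 higher; DESeq2 called 5 lower and 0 higher), beside 8.49% of all genes called lower and 10.2% higher. Hoxd1 had 27, 62 and 106 counts in Foxa2+ CM and 4 and 6 in endoderm, without overlap, with a log2 fold change of -3.12 (SE 0.85, edgeR adjusted p = 0.0189). Hoxa13 had 6, 17 and 27 counts against 2 and 0, a ratio of Foxa2+ CM over endoderm of 11.65 (exact 95% interval 3.06 to 98.8), and is named as the only other gene called. Leaving out Foxa2+ CM replicate 2 or 3, or either endoderm sample, left 1 call, and Hoxd1 itself lost its call without either endoderm sample (adjusted p = 0.119 without replicate 1 and 0.0912 without replicate 2). Hoxb1 did not pass, at 3.13 ± 2.33 CPM in Foxa2+ CM against 3.85 ± 3.20 CPM in endoderm (SD, n = 3 and 2; adjusted p = 0.791), and the groups overlapped.

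Against Foxa2− CM, endoderm was lower in 18 of the 19 tested members and higher in 0 (edgeR and DESeq2 18 lower each; at an unadjusted p under 0.05, 19 lower and 0 higher), beside 7.81% of all genes called lower and 9.18% higher. Several of these genes, such as Hoxa9, Hoxa11, Hoxb7 and Hoxc6, had few counts outside Foxa2− CM and entered the test through that group, so that they had to differ, and the count is no support for the members as a group. Many endoderm values lay at the floor: 15 of the 37 members had no count in either endoderm sample. Hoxb5, Hoxa11 and Hoxb8, with no endoderm count, were at least 10.6-fold, 15.7-fold and 12.7-fold higher in Foxa2− CM, taking 3 counts per library as the floor. Hoxb6 had 1 endoderm count in all against 523 in Foxa2− CM, a ratio of 255 (exact 95% interval 45.6 to 10100), and Hoxd9 had 1 against 495, a ratio of 242 (43.2 to 9565). Of the anterior genes, Hoxb1 and Hoxd1 reached 3 counts in both endoderm samples. Hoxb1 (17 and 73 counts) was lower by a log2 fold change of -2.98 (SE 0.76, edgeR adjusted p = 0.0162), Hoxd1 by -4.72 (SE 0.85, edgeR adjusted p = 0.00281), Hoxb2 (0 and 18 counts) by -3.51 (SE 0.97, edgeR adjusted p = 0.0223) and Hoxb3 (1 and 12 counts) by -3.21 (SE 0.94, edgeR adjusted p = 0.0295). Hoxb1 alone made up 40.5% and 49.0% of the Hox counts of the endoderm samples (exact 95% intervals 25.6% to 56.7% and 40.7% to 57.3%).

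The count of 18 fell to 5 without endoderm replicate 1, 8 without endoderm replicate 2 and 11 without Foxa2− CM replicate 3. Part of the exons of Hoxb2 (27.3%) and Hoxb3 (52.9%) is shared with Hoxb3os, which had 0 and 18 counts in the endoderm samples and 204 to 432 counts in Foxa2− CM. Summed by position, endoderm held 6.35 ± 5.69 CPM of anterior, 0.614 ± 0.0779 CPM of central and 1.22 ± 0.281 CPM of posterior Hox RNA (SD, n = 2). The means in Foxa2− CM were 9.51, 43.8 and 23.8 times as high.

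Haematopoietic mesoderm came from the same kind of culture as the CM groups, and the comparison asked how a Foxa2− lineage outside the cardiac gate stood. Its Hox genes were higher than in Foxa2+ CM for 6 of the 19 tested members and lower for 0 (edgeR and DESeq2 alike, and likewise 6 and 0 at an unadjusted p under 0.05), beside 5.17% of all genes called higher and 6.25% lower. The called genes lay in groups 1 to 8 of HoxB and HoxD plus Hoxd13. Hoxb1 had 352 and 77 counts, at 22.1 and 6.06 CPM, against 1.32 to 5.75 CPM in Foxa2+ CM, with a log2 fold change of 2.15 (SE 0.68, edgeR adjusted p = 0.0478). The adjusted p lay between 0.00806 and 0.394 over the alternatives, and without haematopoietic replicate 1 the log2 fold change was 0.93 (adjusted p = 0.394). The others, named though their counts were lower, were Hoxb5 (4.19, adjusted p = 0.0182), Hoxd8 (3.37, adjusted p = 0.0349), Hoxd3 (3.33, adjusted p = 0.0398), Hoxb4 (2.90, adjusted p = 0.0455) and Hoxd13 (2.00, adjusted p = 0.0049), each a log2 fold change from edgeR. Several of these, such as Hoxb5, Hoxd3 and Hoxd8, had at most 12 counts in each Foxa2+ CM sample and entered the test through other groups. The count is thus no support for the members as a group.

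The count of 6 became 1 without Foxa2+ CM replicate 1 or 2, 2 without haematopoietic replicate 2 or Foxa2− CM replicate 2, and 3 without Foxa2− CM replicate 1 or either endoderm sample, all of which shared the estimate of spread. The haematopoietic samples were themselves unlike. Hoxb4 had 32 and 133 counts, Hoxb5 26 and 134, Hoxd3 8 and 86 and Hoxb6 1 and 44, all higher in replicate 2, whereas Hoxb1 (352 and 77), Hoxa13 (29 and 10) and Hoxa3 (15 and 5) were higher in replicate 1. Of the 15 members with at least 20 counts in the group, 12 were higher in replicate 2. Hoxb1 was 44.6% of the Hox counts of replicate 1 (exact 95% interval 41.0% to 48.1%) and 6.58% of those of replicate 2 (5.22% to 8.15%).

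Between haematopoietic mesoderm and Foxa2− CM, 3 members were called lower in haematopoietic mesoderm and 0 higher (edgeR; 8 lower and 0 higher at an unadjusted p under 0.05; DESeq2 called 4 lower and 0 higher), beside 6.4% of all genes called lower and 5.24% higher. They were Hoxa11, with 0 and 4 counts against 34, 41 and 126 (log2 fold change -4.80, adjusted p = 0.0137), Hoxa10, with 0 and 5 counts against 18, 15 and 82 (-3.66, adjusted p = 0.0343), and Hoxc6, a thoracic gene with 2 counts in all against 60, a ratio of 18.5 in favour of Foxa2− CM (exact 95% interval 4.90 to 156). All 3 had at most 9 counts in every sample outside Foxa2− CM and entered the test through that group, so that they had to differ, and all were named after their values were seen. The anterior genes tested lay between -1.12 and 0.43, none with an adjusted p under 0.05. As sums, Foxa2− CM over haematopoietic mesoderm was 1.37 for anterior, 1.31 for central and 4.54 for posterior genes. Posterior genes made up 7.34% and 9.99% of haematopoietic Hox counts, below the 20.9% to 28.3% of Foxa2− CM in every sample, and 17.4% to 21.8% in Foxa2+ CM was also above it.

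Of the posterior genes only Hoxa10 and Hoxa11 passed the test in that comparison. Hoxd13 did not pass, at 1.19 ± 0.437 CPM in haematopoietic mesoderm and 1.86 ± 0.346 CPM in Foxa2− CM (SD, n = 2 and 3, adjusted p = 0.164). Hoxd9 stood at 0.439 and 3.15 CPM against 5.51 to 18.2 CPM, without overlap, and did not pass (adjusted p = 0.0645). The count of 3 became 1 without Foxa2+ CM replicate 1 or without Foxa2− CM replicate 3, and 0 without haematopoietic replicate 1, where 2 Hox genes were higher and 5 lower at an unadjusted p under 0.05.

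Between endoderm and haematopoietic mesoderm, both outside the cardiac gate, 10 members were called lower in endoderm and 0 higher (edgeR; 12 lower and 0 higher at an unadjusted p under 0.05; DESeq2 called 13 lower and 0 higher), beside 8.11% of all genes called lower and 11% higher. Several of these genes, such as Hoxb5 and Hoxb8, had no endoderm count and entered the test through groups where they were higher. They had to differ, and the count is no support for the members as a group. Hoxb2, a hindbrain gene, had 0 and 18 counts in endoderm and 145 and 192 counts in haematopoietic mesoderm (log2 fold change -3.94, SE 1.01, edgeR adjusted p = 0.0143). Hoxb3 had 1 and 12 against 57 and 100 (-3.31, SE 0.99, edgeR adjusted p = 0.0284), and Hoxd1 had 4 and 6 against 50 and 147 (-4.03, SE 0.88, edgeR adjusted p = 0.00674). Hoxb5, without an endoderm count, was at least 23-fold higher in haematopoietic mesoderm, and Hoxb4 had 2 endoderm counts against 165, a ratio of 65.4 (exact 95% interval 17.8 to 544). Hoxb1 did not pass (adjusted p = 0.0988). Without endoderm replicate 1 the count was 2, without endoderm replicate 2 it was 4 and without haematopoietic replicate 2 it was 6. The comparisons above share samples and are set side by side as each one's own values.

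Known upstream regulators of Hox clusters were described by lists. Beside each list count between the CM groups below stand the same shares of all tested genes, 1.52% called lower in Foxa2+ CM and 1.49% higher. Of 11 caudal and posterior streak regulators, 10 were tested between the CM groups, and 3 were called lower in Foxa2+ CM and 0 higher (edgeR; 7 lower and 1 higher at an unadjusted p under 0.05; DESeq2 called 4 lower and 0 higher). Cdx2 had 2.63, 4.34 and 13.3 CPM in Foxa2+ CM, against 40.8, 52.8 and 77.1 CPM in the Foxa2− samples (log2 fold change -3.05, SE 0.52, edgeR adjusted p = 0.0149). Cdx1 was at 1.35 to 2.27 CPM against 5.92 to 18.4 CPM (-2.74, SE 0.43, edgeR adjusted p = 0.0116), and the paraxial regulator Tbx6 fell by 1.14 (edgeR adjusted p = 0.0354). Cdx4 had 2, 2 and 8 counts against 9, 10 and 71 and was not tested. The streak gene T (Brachyury) lay between 105 and 117 CPM in Foxa2+ CM, above the 81.1 to 103 CPM of Foxa2− CM, and was not called. In haematopoietic mesoderm Cdx2 was at 8.78 and 10.9 CPM, within the Foxa2+ CM range, and lower than in Foxa2− CM by a log2 fold change of -2.53 (SE 0.61, edgeR adjusted p = 0.0169). The summed central Hox RNA of haematopoietic replicate 1 (5.835 CPM) lay below every Foxa2− CM sample (14.4 to 47.1 CPM). That of replicate 2 (35.0 CPM) lay within their range. A link between Cdx2 and these sums was not tested.

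Of 17 genes of the retinoic acid pathway, 15 were tested between the CM groups, and 2 were called lower in Foxa2+ CM and 0 higher (edgeR; 6 lower and 2 higher at an unadjusted p under 0.05; DESeq2 called 2 lower and 0 higher). Aldh1a2, which makes retinoic acid in mesoderm, was at 1.39, 1.85 and 3.55 CPM in the Foxa2+ CM samples, against 6.19, 9.21 and 12.4 CPM without Foxa2 (log2 fold change -2.02, SE 0.39, edgeR adjusted p = 0.0227). Crabp1, an intracellular retinoic acid binding protein, was at 8.39 to 13.8 CPM against 23.5 to 27.5 CPM (-1.30, edgeR adjusted p = 0.01). In haematopoietic mesoderm Aldh1a2 was at 7.72 and 13.4 CPM, which overlapped Foxa2− CM, and in endoderm it was at 0.652 and 1.17 CPM. Against Foxa2+ CM, endoderm was higher in 4 genes of the list and lower in 3, of 16 tested (edgeR), beside 10.2% of all genes called higher and 8.49% lower. The largest of these were Stra6, a receptor for retinol uptake, at a log2 fold change of 6.92 (adjusted p = 8.91e-05), and Cyp26b1, which degrades retinoic acid, at -4.68 (adjusted p = 8.53e-05).

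Of the 9 TALE cofactors, Meis1 and Meis2 were called lower in Foxa2+ CM and 0 higher, by edgeR, DESeq2 and an unadjusted p under 0.05 alike. Meis2 was at 5.78, 9.55 and 13.03 CPM against 27.3, 29.2 and 28.4 CPM (log2 fold change -1.57, SE 0.25, edgeR adjusted p = 0.0118), and Meis1 at 1.33 to 2.31 CPM against 4.46 to 8.30 CPM (-1.80, SE 0.31, edgeR adjusted p = 0.0162). The median over the list was -0.0297. In haematopoietic mesoderm Meis1 (166 and 22 counts) and Meis2 (406 and 45 counts) were higher in replicate 1, as Hoxb1 was and as most other Hox genes were not. In endoderm Meis2 was at 12.2 and 34.1 CPM and was not called against either CM group, and Pbx4 was the only cofactor called in the endoderm comparisons, higher in endoderm by a log2 fold change of 1.82 to 2.14.

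Of 24 Polycomb and Trithorax genes, all tested, 0 were called between the CM groups by edgeR or DESeq2, with 1 higher and 1 lower at an unadjusted p under 0.05, and the list's median was 0.000902. Of 11 ParaHox and Hox-related homeobox genes, 5 were tested between the CM groups, and Gbx2 was lower in Foxa2+ CM (log2 fold change -2.10, edgeR adjusted p = 0.0151) while Gbx1 was higher (1.46, edgeR adjusted p = 0.0235). Of 16 noncoding RNAs in or beside the clusters with counts, 3 were tested: Hoxb3os (-1.36, adjusted p = 0.123), Haglr (-0.91, adjusted p = 0.25) and Hotairm1 (-0.49, adjusted p = 0.692) were not called between the CM groups by edgeR (2 lower and 0 higher at an unadjusted p under 0.05, and DESeq2 called 1 lower), while 2 were lower in endoderm than in Foxa2+ CM and all 3 lower than in Foxa2− CM.

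Markers of other cell types moved with the Hox genes in part. Of 6 markers of extraembryonic mesoderm and allantois, 5 were tested and Tbx4, Spin2c and Hand1 were called lower in Foxa2+ CM, the whole list summing to 352 to 576 CPM there and 491 to 836 CPM in Foxa2− CM, which overlap, with none at 0. Of 7 paraxial mesoderm markers, 5 were tested and Dll1 and Tbx6 were called lower, the sums being 26.2 to 35.6 CPM and 30.4 to 32.6 CPM, with none at 0. At an unadjusted p under 0.05 of edgeR, 3 were lower and 1 higher (Meox1, log2 fold change 1.12). DESeq2 called 2 lower and 1 higher. Of 10 cardiac mesoderm markers, Mesp1, Isl1 and Hand1 were lower and Nkx2-5 and Tbx5 higher in Foxa2+ CM, with sums of 1069 to 1274 CPM and 1331 to 1477 CPM. Definitive endoderm markers (8) summed to 211 to 224 CPM in Foxa2+ CM, against 188 to 193 CPM in Foxa2− CM. This list includes Foxa2, on which the cells were sorted. Foxa2 and Sox17 were called higher and 0 lower by edgeR. At an unadjusted p under 0.05, 3 were higher and 2 lower, the latter being Foxa1 (log2 fold change -0.88) and Cxcr4 (-0.32). None of the 8 haemato-endothelial markers was called by edgeR, with 1 higher and 1 lower at an unadjusted p under 0.05, and DESeq2 called 1 lower. Of 7 neural and neuromesodermal markers 3 were tested and Sox3 was called higher in Foxa2+ CM. Sox2 was lower there but under 2-fold (log2 fold change -0.89, edgeR adjusted p = 0.034). Of 6 pluripotency markers Nanog was called lower (log2 fold change -2.41, edgeR adjusted p = 0.00132) and 0 higher. At an unadjusted p under 0.05 of edgeR, 3 of these 6 were lower and 2 higher, namely Fgf5 (log2 fold change 1.30) and Esrrb (1.33). DESeq2 called 1 lower and 1 higher. The part of these cell types in the Hox differences was not tested.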

How the data were processed

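RNA from 10 sorted samples was sequenced by the authors as 50-nt single-end reads (TruSeq v2 libraries), aligned to mm10 with STAR 2.5.0a, cleared of duplicates with Picard and counted per gene with HTSeq 0.6.0, and the values deposited are raw counts. The strand setting of the counting is not given in the sources used here, and duplicate removal in single-end data can cap the counts of abundant genes. Rows without a gene were left out of library sizes, and were 19.5% to 27.8% of each file's total as no-feature or ambiguous reads. Identifiers were paired with GENCODE M21 symbols, which matched 37607 of 38924. One Hox gene and a result on another listed gene are not reported here.

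Counts were analysed in R 4.3.3 with edgeR 4.0.16 (filterByExpr, TMM, quasi-likelihood test, Benjamini-Hochberg adjustment over all genes tested). The CM comparison was fitted on the 6 CM samples, and the 5 others on all 10 samples with 1 shared estimate of spread. A gene was called at an adjusted p under 0.05 and at least 2-fold. Depth was 10926284 to 17470126 counts on genes. Replicates differed by more than sampling noise (chi-square per degree of freedom 4 to 23.62), so none was counted as a duplicate. DESeq2 1.42.0, other scalings, no filter on low counts, a replicate block, other samples in the fit and the omission of each sample in turn were tried as alternatives. Leaving out both CM samples numbered 3 was chosen after seeing the data. The fit was tested on simulated data.

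Full values are given for Hox genes called between the CM groups and, elsewhere, for up to 5 called genes with the largest change and a mean of at least 50 counts. Hox genes outside that rule, and Hoxa13 in endoderm, were named after their values were seen. The members and gene lists were chosen with earlier results of these data known. Promoter windows came from RefSeq on GRCm38.p6. Summaries and plots were made with Python 3.11.15, pandas 2.3.3, numpy 2.4.6 and matplotlib 3.10.9.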

Additional observations from a re-analysis of the deposited data

How the results depend on the processing

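For the 9 genes called between the CM groups and the genes of at least 50 mean counts named by rule in the other comparisons, no log2 fold change changed sign under the alternatives run: of 284 values, 232 kept their side of the threshold and 52 lost it. Between the CM groups, 9 Hox genes were called, against 17 with no filter on low counts, 15 by DESeq2, 3 with all 10 samples in 1 model and 16 without either CM sample numbered 3. Of all genes, 233 were called lower in Foxa2+ CM in the main fit. In those same settings the number was 335, 279, 91 and 476. The cause was not tested. For endoderm against Foxa2+ CM the count of 2 became 4 with no filter, 5 by DESeq2 and 1 without the CM samples numbered 3. With only the 2 groups compared in the fit, which leaves fewer samples, the count fell from 6 to 2 for haematopoietic mesoderm against Foxa2+ CM, from 3 to 1 against Foxa2− CM and from 10 to 2 for endoderm against haematopoietic mesoderm. Haematopoietic mesoderm against Foxa2− CM also gave 5 with no filter and 1 without the CM samples numbered 3. Leaving out 1 sample at a time gave 2 to 15 calls between the CM groups, 1 to 3 for endoderm against Foxa2+ CM, 5 to 20 for endoderm against Foxa2− CM, 1 to 5 and 0 to 4 for haematopoietic mesoderm against Foxa2+ and Foxa2− CM, and 2 to 11 for endoderm against haematopoietic mesoderm. A lone sample left in a group was assumed to vary like the other groups.

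With the replicate number as a block, 16 Hox genes were called between the CM groups and 10 for haematopoietic mesoderm against Foxa2+ CM, and the other counts were 3, 17, 4 and 11, within 1.5 times of the values without it. The 4, for haematopoietic mesoderm against Foxa2− CM, were 3 called lower and 1 called higher in haematopoietic mesoderm. Deviations of same-numbered CM samples correlated at 0.48, 0.086 and 0.58 over 15284 genes. Whether same-numbered samples came from the same culture is not given, so shared culture remains possible. The main fit did not pair them. Depth also limits the members: with 42 to 3082 Hox counts a sample, 15 of the 37 genes had no count in either endoderm sample.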
